A study of Mus musculus with 48 samples.

Results

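The genes of the cytosolic ribosomal proteins were compared in the substantia nigra (SN) of mice injected with α-synuclein preformed fibrils (PFF) or with monomeric α-synuclein and kept in 21% or 11% O2. Members were the protein-coding genes whose symbols begin with Rpl or Rps and a number, together with Rplp0, Rplp1, Rplp2 and Rpsa, without the S6 kinases and without named pseudogenes. The rule took in 86 of the 19601 protein-coding genes. Of these, 31 encode proteins of the small subunit, 46 encode proteins of the large subunit, 8 are paralogs or copies (Rpl3l, Rpl7l1, Rpl10l, Rpl22l1, Rpl36al, Rpl39l, Rps27l and Rps27rt), and 1, Rps19bp1, encodes a protein named for binding Rps19 and is not itself a ribosomal protein.

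All mice were C57BL/6J males that received 1 stereotaxic injection into the right striatum at 121 days of age and were killed 90 to 98 days later. The 4 groups were monomer at 21% O2 (n = 11), PFF at 21% O2 (n = 12), monomer at 11% O2 (n = 9) and PFF at 11% O2 (n = 10). These 42 mice were what remained of 48 after the study set 6 aside as outliers. The study's text has the mice in the chambers for the whole time after surgery, whereas the deposited design text has the change to 11% O2 some weeks later, and the accounts could not be reconciled here. The whole SN was taken and RNA was poly(A)-selected in bulk, so fewer cells of a type and less RNA per cell cannot be told apart. All 7 markers of dopaminergic neurons, whose cell bodies lie in the SN, were detected in each group, and their summed level ran from 1070 to 5300 TPM (a read count scaled for gene length and library size) among the 42 mice. Counts on genes ran from 12902996 to 17120921 per mouse. Endothelial and red cell markers were higher at 11% than at 21% O2 in monomer mice. At adjusted p under 0.05 these were 4 of 4 and 5 of 5, against 13.2% of all genes. All 5 oligodendrocyte markers also had higher estimates (2 past adjusted p), as did all 5 microglial markers (0 past). Of 5 general neuron markers 4 had lower estimates (0 past). No dopaminergic neuron, astrocyte or choroid plexus marker passed. The part of these cells in the values below was not tested. Mice had been harvested in 3 batches, and the deposited counts had been corrected for batch. Batch 2 held no monomer mice at 11% O2 and batch 3 held no monomer mice at 21% O2.

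A cytosolic ribosome is built from a small subunit that decodes mRNA and a large subunit that joins amino acids, each an assembly of ribosomal RNA and many ribosomal proteins needed in nearly equal numbers. Vertebrate ribosomal protein mRNAs belong to the TOP class, which starts with a C followed by an uninterrupted run of pyrimidines, and their translation is turned up or down through mTORC1 and the TOP-binding protein Larp1. In neurons ribosomal protein mRNAs are also found in dendrites and axons, where local translation takes place.

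Promoter windows that were 250 bases before to 50 bases after an annotated start (RefSeq, GRCm38.p6) matched 66 of the 86 genes, with 78 windows. A run of at least 8 pyrimidines (C or T on the sense strand) within 50 bases of the start was in 59 of 78 windows (75.6%), against 35.7% of all 32851 windows of the same length. The letters CCGGAAG, an ETS-type core, were on either strand in 27 of the 78 (34.6%), against 8.9% of all windows. All windows together cover 27025 genes, more than the 19601 protein-coding genes of the counts. They were not matched to the members for gene type or level, so these shares do not show traits particular to this family. A window is shown for each of 3 small-subunit genes with the smallest p-values in the comparison described first below, and for Rps19bp1, the 1 member that passed the test between oxygen levels. Each line covers 130 bases before and 20 bases from the start, 5′ to 3′ on the strand of the gene, and capitals mark the pyrimidine run at the start and any CCGGAAG on the strand shown. They lie at chr3:90213629-90213778, chr17:33955646-33955795, chr17:33824543-33824692 and chr15:80264287-80264436, all on the minus strand.
Rps27: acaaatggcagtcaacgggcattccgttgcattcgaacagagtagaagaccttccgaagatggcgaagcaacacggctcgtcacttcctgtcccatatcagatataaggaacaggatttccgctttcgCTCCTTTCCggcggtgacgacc
Rps18: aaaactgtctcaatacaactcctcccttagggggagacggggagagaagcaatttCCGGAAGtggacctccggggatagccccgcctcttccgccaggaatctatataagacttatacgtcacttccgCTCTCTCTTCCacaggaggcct
Rps28: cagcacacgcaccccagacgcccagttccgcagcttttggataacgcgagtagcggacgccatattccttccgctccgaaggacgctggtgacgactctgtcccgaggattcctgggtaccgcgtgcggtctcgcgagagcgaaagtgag
Rps19bp1: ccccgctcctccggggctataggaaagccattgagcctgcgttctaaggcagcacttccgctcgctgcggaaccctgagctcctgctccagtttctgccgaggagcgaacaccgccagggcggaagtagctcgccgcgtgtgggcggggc
The windows of Rps27 and Rps18 carried runs of 9 and 11 pyrimidines at the start. Within 50 bases of the start the longest runs of Rps28 and Rps19bp1 were 5 bases, so neither met the minimum at this annotated start.

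Ribosomal protein genes resemble each other and have many processed copies, which bears on which gene a read was counted for. The coding sequence of Rps27 (GRCm38, chr3:90212522-90213651, minus strand) is shown with those of its relatives Rps27l (chr9:66946086-66949516, plus strand) and Rps27rt (chr9:114982366-114982739, minus strand), from GENCODE vM21 transcripts. Capitals in the relatives mark bases that differ from Rps27.
Rps27: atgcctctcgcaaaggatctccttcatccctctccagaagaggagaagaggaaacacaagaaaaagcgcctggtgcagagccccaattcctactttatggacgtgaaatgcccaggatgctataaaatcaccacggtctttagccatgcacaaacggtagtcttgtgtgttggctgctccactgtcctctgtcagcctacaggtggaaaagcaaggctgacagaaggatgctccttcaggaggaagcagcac
Rps27l: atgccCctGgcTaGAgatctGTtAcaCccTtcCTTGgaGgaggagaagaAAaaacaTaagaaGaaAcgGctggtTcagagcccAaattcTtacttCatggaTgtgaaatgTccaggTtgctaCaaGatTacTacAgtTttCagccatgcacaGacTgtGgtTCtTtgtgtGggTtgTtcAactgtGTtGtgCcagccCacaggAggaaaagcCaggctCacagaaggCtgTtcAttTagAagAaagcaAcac
Rps27rt: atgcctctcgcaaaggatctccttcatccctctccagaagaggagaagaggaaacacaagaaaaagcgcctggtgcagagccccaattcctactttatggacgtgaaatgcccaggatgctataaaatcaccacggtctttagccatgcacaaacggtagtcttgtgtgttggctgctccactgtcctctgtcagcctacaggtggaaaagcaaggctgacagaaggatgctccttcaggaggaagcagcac
Rps27l differed from Rps27 at 60 of 252 coding bases (76.2% identity). Rps27rt matched it at 252 of 252, so a read from their coding sequence fits both loci and the split of counts between Rps27 and Rps27rt is uncertain. Of the other paralogs, Rpl36al shared 87.7%, Rpl39l 85.0%, Rpl10l 84.7%, Rpl3l 73.5%, Rpl22l1 68.0% and Rpl7l1 53.5% of aligned coding bases with Rpl36a, Rpl39, Rpl10, Rpl3, Rpl22 and Rpl7.

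Of the 86 genes, 39 share at least 1 exonic base with another gene, 28 of them on the same strand. Rps10 shares 475 of its 2311 exonic bases with the readthrough gene RPS10-NUDT3, Rpl24 shares 484 of 1030 with Gm28037, Rpl36al shares 332 of 1353 with Gm49383 and Rpl13a shares 621 of 2114 with Gm45713, all on the same strand. Reads that fall on 2 genes at once were not assigned by the authors' counting, and the levels of these 4 genes are therefore uncertain. Gm28037, Gm49383 and Gm45713 had 0 uncorrected counts in all 42 mice. On the opposite strand, Rpl35 shares 821 of 1241 exonic bases with Wdr38 and Rpl23a shares 506 of 847 with Tlcd1. The counting used no strand option, so reads that fall on both partners were not assigned either. The levels of Rpl35 and Rpl23a are therefore uncertain as well. The 311 genes named as ribosomal protein pseudogenes received between 1.55 and 1.88 counts for every 100 on the members in each of the 42 mice.

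Ribosomal protein mRNAs were mostly abundant. The median level of the 86 genes was 267 TPM, against 23.1 TPM over the genes tested, and 71 members exceeded 100 TPM. The highest was Rplp1, a protein of the acidic stalk that recruits elongation factors, with a mean over the 42 mice of 2090 TPM. It was followed by Rps3a1 at 1240 TPM, Rps15 at 979 TPM, Rpl4 at 797 TPM and Rps6, the substrate of the S6 kinases, at 747 TPM. The 10 most abundant members held 33.1% of the members' TPM. At the other end, 8 members were under 50 TPM and 6 under 10 TPM, among them the paralogs Rpl3l (3.74 TPM) and Rpl36al (2.67 TPM), and the subunit genes Rps10 (7.41 TPM) and Rpl24 (3.36 TPM) whose exons are partly shared with other genes. Rpl39l had 0.367 TPM, and Rpl10l was listed at 0 in all mice. These last 2 did not pass the filter on low counts, which left 84 of the 86 members among 14839 genes tested. The members' median coefficient of variation over the 42 mice was 7.61%, against 10.5% over the genes tested. These sets were not matched for level, and the low members Rpl24 (30.9%) and Rpl36al (26.8%) varied more.

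Of all TPM, monomer mice at 21% O2 had 2.7% ± 0.0846 (SD, n = 11) on the 86 genes, and PFF mice at 21% O2 had 2.86% ± 0.124 (SD, n = 12). At 11% O2 the share was 2.73% ± 0.118 (SD, n = 9) after monomer and 2.77% ± 0.224 (SD, n = 10) after PFF injection. The ranges were 2.58% to 2.91%, 2.68% to 3.06%, 2.58% to 2.93% and 2.47% to 3.16%, so all 4 groups overlapped and the PFF mice at 11% O2 spread most.

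As a second measure, the mean over the 84 tested genes of log2 CPM (counts scaled for library size) was taken in each mouse relative to the mean of monomer mice at 21% O2. Monomer mice at 21% O2 ran from -0.07 to 0.10 on this log2 scale, with an SD of 0.05. PFF mice at 21% O2 ran from -0.02 to 0.20 (median 0.12), with a mean of 0.11 ± 0.07 (SD, n = 12). Monomer mice at 11% O2 ran from -0.06 to 0.15, with a mean of 0.03 ± 0.07 (SD, n = 9), and PFF mice at 11% O2 from -0.09 to 0.28, with a mean of 0.06 ± 0.13 (SD, n = 10). Most members lay above the monomer, 21% O2 mean in 7 of 11, 11 of 12, 5 of 9 and 7 of 10 mice of the 4 groups in that order.

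**Figure D1:**
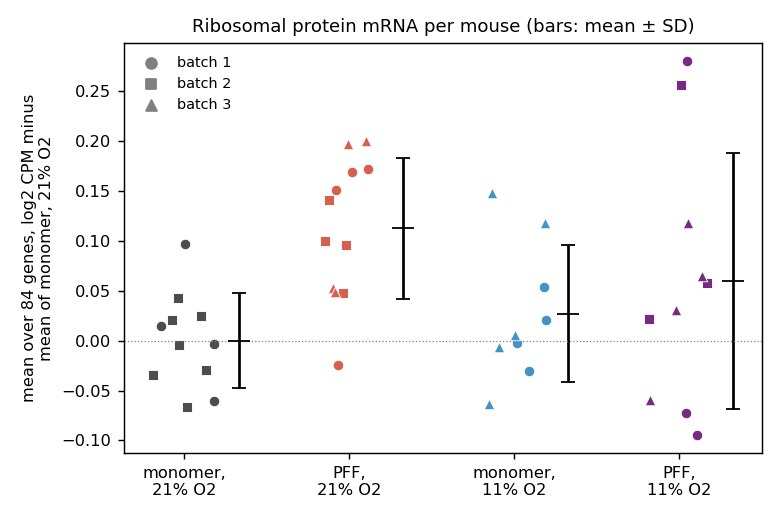
Each point is 1 of 42 mice, with the mean over 84 ribosomal protein genes of log2 CPM, relative to the mean of monomer mice at 21% O2 (y axis), by group (x axis). Marker shape gives the batch and bars the mean ± SD, and 11 of 12 PFF mice at 21% O2 lie above 0, while PFF mice at 11% O2 run from -0.09 to 0.28.

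PFF mice at 11% O2 held 2 mice that stood apart. Replicate 1 stood at 0.28 and replicate 8 at 0.26 on this scale, above the highest of the other 40 mice (0.20). Replicate 1 had the fewest counts of the 42 mice, 12902996. It had 16.5% of its uncorrected TPM on the 37 mitochondrially encoded genes (the mitochondrial share), where the mean of its group was 13.7%. Replicate 8 had 13986369 counts and a mitochondrial share of 14.7%. At 21% O2 monomer mice had a mitochondrial share of 13.5% ± 0.891 (SD, n = 11), and PFF mice of 14.3% ± 1.24 (SD, n = 12), so its mean was also higher after PFF injection. Its part in the ribosomal protein values was not tested beyond the fits with it as a covariate given below.

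**Figure D2:**
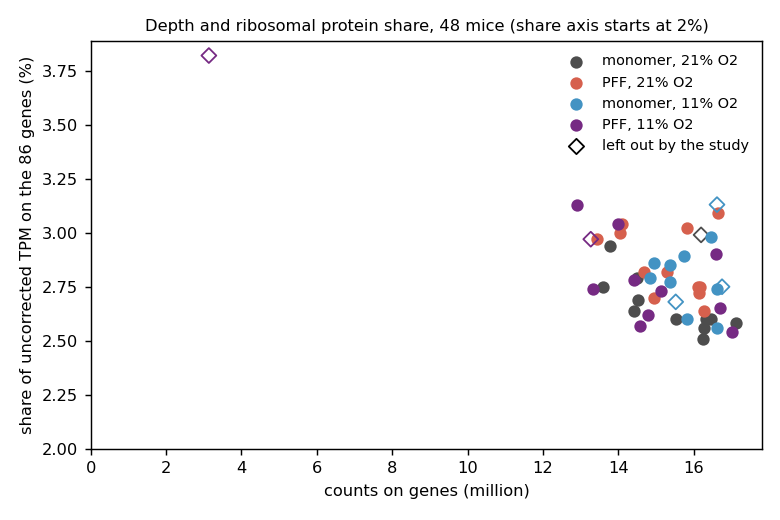
Counts on genes (x axis) and the share of uncorrected TPM on the 86 genes in percent (y axis, from 2%) for all 48 mice, coloured by group, with open diamonds for the 6 mice left out by the study. One left-out PFF mouse at 11% O2, with 3134594 counts and a share of 3.82%, lies far from the others, whose 42 analysed mice lie between 12902996 and 17120921 counts.

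The first comparison asked how PFF injection changed these mRNAs in mice breathing 21% O2. Small shifts in 1 direction were found across the family. Of the 84 genes tested, 82 had a higher estimate in PFF than in monomer mice, with a median log2 fold change of 0.114 (8.23%) against 0.001 over all genes tested, of which 50.4% were higher. With edgeR's quasi-likelihood test and Benjamini-Hochberg adjustment over 14839 genes, 8 members passed an adjusted p of 0.05, all of them higher in PFF mice. The background for this rule was 7.59% of all genes (3.89% in the higher direction). None of the 84 also exceeded a log2 fold change of 0.25, a rule that called 3.7% of all genes. DESeq2 put 12 members past an adjusted p of 0.05 and none past both limits, and limma on log2(TPM + 1) put 6 and 1. The shares of all genes under DESeq2 and limma were not taken, so these counts have no background beside them. At an unadjusted p of 0.05, 58 of the 84 passed, against 22.4% of all genes. Members moved together within a mouse, so they are not 84 separate observations, here or in the comparisons below. Among monomer mice at 21% O2 alone, between 9 and 78 of the 84 lay above the mean of that group in a mouse. Counts of members in 1 direction can therefore follow from a shift in a few mice.

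Markers of several cell types had estimates mostly in 1 direction in the same contrast, but only 1 oligodendrocyte marker passed adjusted p. All 5 microglial markers had estimates above 0 (median 0.116, 0 past adjusted p in edgeR's test), and their summed level ran from 285 to 541 TPM in monomer and from 299 to 541 TPM in PFF mice. All 5 red cell markers were also above 0 (median 0.305, 0 past adjusted p), with sums from 514 to 1400 TPM and from 383 to 2410 TPM, as were all 5 oligodendrocyte markers (median 0.027, 1 past adjusted p), with sums from 7090 to 9740 TPM and from 7090 to 9250 TPM. The 5 general neuron markers were below 0 (median -0.069, 0 past adjusted p), with sums from 1530 to 2050 TPM and from 1440 to 1930 TPM. Of 4 choroid plexus markers 3 were above 0, with sums of up to 80.4 TPM in monomer and 316 TPM in PFF mice. Of 7 dopaminergic neuron markers 5 were above 0 (median 0.051, 0 past adjusted p). The same held for 4 of 5 astrocyte markers (median 0.039, 0 past) and 1 of 4 endothelial markers (median -0.047, 0 past). No marker of these lists was at 0 in all mice of a group, the summed levels overlapped between the groups, and the part of these cells in the ribosomal protein values was not tested.

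The small subunit supplied 7 of these 8 genes and the large subunit the other. All 31 small-subunit genes had estimates above 0 (median 0.116), as did all 46 large-subunit genes (median 0.111). The difference between 7 of 31 and 1 of 46 was not tested. Restricting the members to the 45 tested genes that share no exon with another gene gave 43 higher, with a median of 0.121.

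Rps27, a zinc-finger protein of the small subunit, ran from 172.03 to 235.3 TPM (median 195) in monomer and from 201.8 to 233.2 TPM (median 216.4) in PFF mice at 21% O2. All 12 PFF mice lay above the monomer median, while the ranges overlapped. Their means were 194 ± 18.0 TPM (SD, n = 11) against 216 ± 10.4 TPM (SD, n = 12), and the log2 fold change was 0.17 ± 0.05 (SE), with an adjusted p of 0.0231 from edgeR. Its sequence-identical copy Rps27rt had 31.9 ± 6.24 TPM (SD, n = 11) and 38.8 ± 5.76 TPM (SD, n = 12), a log2 difference of 0.30 ± 0.10 (SE) that did not pass (edgeR adjusted p = 0.0569).

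Rps18, which lies in the head of the small subunit, ran from 138.9 to 168.0 TPM (median 152.2) in monomer and from 154.7 to 182.2 TPM (median 165.6) in PFF mice. Again 12 of 12 PFF mice were above the monomer median and the groups overlapped. It rose by 0.16 ± 0.04 (log2, SE), with an edgeR adjusted p of 0.0244. Rps28, which contacts mRNA near the exit site, ran from 92.2 to 118 TPM (median 109) in monomer and from 113 to 131 TPM (median 118) in PFF mice. With 12 of 12 PFF mice above the monomer median it rose by 0.19 ± 0.05 (log2, SE), with an edgeR adjusted p of 0.0272, the largest fold change among the 7.

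The other 4 small-subunit genes rose by between 0.14 and 0.17 on the log2 scale. Rps23, a decoding-centre protein, went from 373 ± 15.2 TPM (SD, n = 11) to 409 ± 26.8 TPM (SD, n = 12), with 11 of 12 PFF mice above the monomer median (edgeR adjusted p = 0.0399), and Rps4x, encoded on the X chromosome, from 565 ± 23.8 to 613 ± 35.1 TPM (adjusted p = 0.0471). Rps29 and Rps16 were named after their values were seen, since they too passed. Rps29 went from 252 ± 15.8 to 281 ± 19.6 TPM (adjusted p = 0.0444) and Rps16 from 322 ± 12.6 to 351 ± 21.9 TPM (adjusted p = 0.0488).

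**Figure D3:**
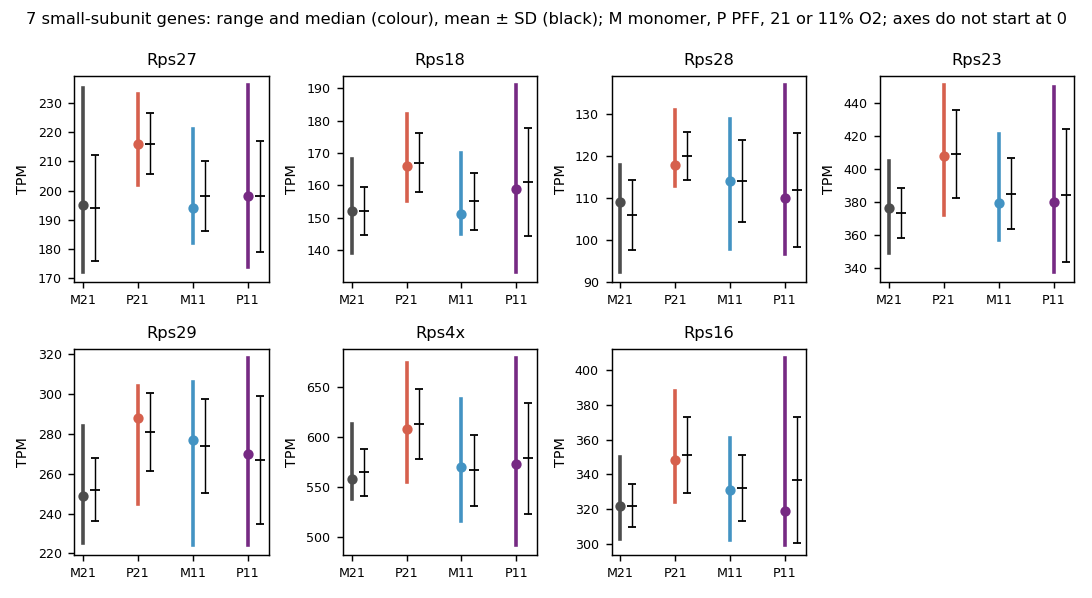
TPM (y axes, which do not start at 0) of the 7 small-subunit genes with an edgeR adjusted p under 0.05 between PFF and monomer mice at 21% O2, in the 4 groups (x axes; M monomer, P PFF, with the O2 percentage). Coloured lines span lowest to highest mouse with a point at the median, black bars give the mean ± SD, and in each panel the PFF, 21% O2 median is above the monomer, 21% O2 median while the ranges overlap, as Rps27 does between 201.8 and 233.2 TPM.

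Other members with well-known roles had smaller estimates that did not pass. Among the stalk proteins the log2 fold change was 0.12 ± 0.04 (SE) for Rplp0 (edgeR adjusted p = 0.0698), 0.12 ± 0.05 for Rplp1 (0.133) and 0.07 ± 0.04 for Rplp2 (0.366). Rps27a, made as a fusion with ubiquitin, had 0.10 ± 0.04 (0.139), Rps6 had 0.08 ± 0.04 (0.178) and Rpsa, also known as the laminin receptor, 0.06 ± 0.04 (0.341). The median SE over members was 0.046. The 2 members with estimates below 0 were Rpl7l1 (-0.07 ± 0.04, edgeR adjusted p = 0.232) and Rps19bp1 (-0.08 ± 0.04, 0.305).

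The symbol rule leaves out some components of the ribosome. Fau, which encodes Rps30 fused to a ubiquitin-like protein, had a log2 fold change of 0.13 ± 0.05 (edgeR adjusted p = 0.0783), and Rack1, the scaffold on the small subunit, had 0.07 ± 0.04 (0.233).

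Batches gave similar sizes for the family. In batch 1 alone (4 against 4 mice) the median was 0.107 with 81 genes higher and 0 past adjusted p, and in batch 2 alone (4 PFF against 7 monomer mice) it was 0.10 with 82 higher and 1 past. Rps27 had 0.13 and 0.21 in these batches, Rps18 0.18 and 0.11, and Rps28 0.15 and 0.17. With the mitochondrial share as a covariate, chosen after the data were seen, the median was 0.074 with 82 genes higher, and none of the 8 genes passed (edgeR adjusted p from 0.0718 for Rps27 to 0.171 for Rps4x). The choice of mice also bore on the calls. In the uncorrected counts of the 42 mice, with batch as a covariate, 6 of the 8 genes passed, and with all 48 mice none of them did (median 0.10, 81 genes higher).

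In mice breathing 11% O2 the same injection contrast gave no member past the test. With edgeR, 0 of 84 members and 0.0% of all genes had an adjusted p under 0.05, and DESeq2 and limma also gave 0 members. At an unadjusted p of 0.05 there were 2 members, against 3.92% of all genes. These were Rps19bp1 (log2 fold change 0.13 ± 0.05, SE) and Rpl22l1, a paralog of Rpl22 (0.15 ± 0.06), both with an edgeR adjusted p of 1.0. Of the 84 genes, 71 had estimates above 0 (49.6% of all genes), with a median of 0.041 against -0.001 over all genes.

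That median rested on few mice. It was 0.026 in batch 1 and -0.004 in batch 3, and leaving out PFF replicate 1 at 11% O2, a fit added after the data were seen, took it to 0.011 with 53 genes higher. Fitting the uncorrected counts of all 48 mice, with batch as a covariate, gave 0.092 with 81 higher, and leaving from those the 1 shallow PFF mouse with 3134594 counts gave 0.023. Of the 8 genes that passed at 21% O2, Rps27 averaged 198 ± 12.0 TPM (SD, n = 9) after monomer and 198 ± 18.9 TPM (SD, n = 10) after PFF injection at 11% O2. Rps18 averaged 154.7 ± 8.9 and 161.5 ± 16.7 TPM, and Rps28 averaged 114 ± 9.84 and 112 ± 13.6 TPM. All of these differences were within 1 SD.

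**Figure D4:**
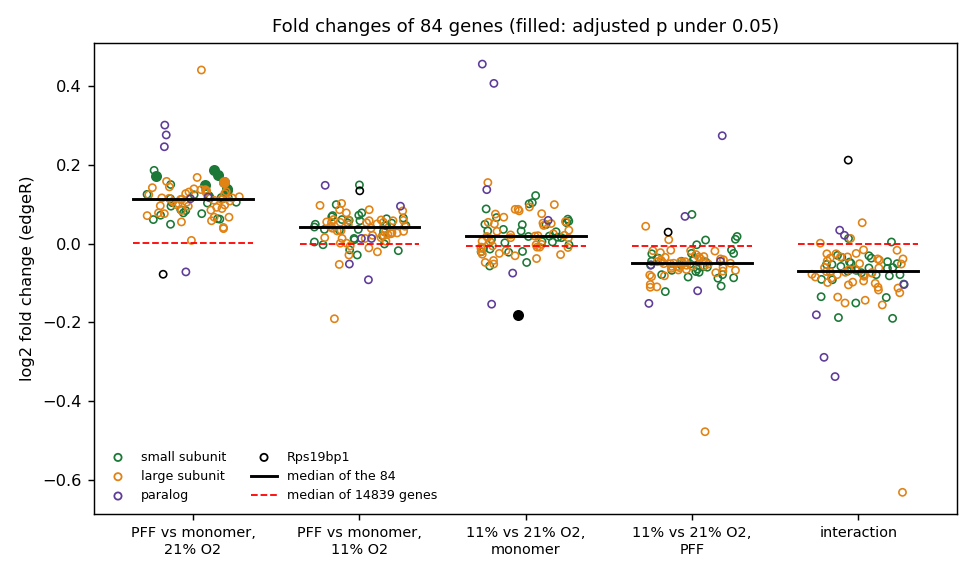
edgeR log2 fold changes (y axis) of 84 genes in 5 comparisons (x axis), coloured by class, with filled points for an adjusted p under 0.05, the members' median as a black line and the median of all 14839 genes as a dashed red line. The members' median is 0.114 for PFF against monomer at 21% O2 and 0.041 at 11% O2, 0.018 and -0.050 for the O2 contrasts in monomer and PFF mice, and -0.069 for the interaction, and the comparisons share mice.

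The effect of breathing 11% O2 was next taken in monomer-injected mice, which share their 21% O2 controls with the first comparison. Here 13.2% of all genes passed an adjusted p of 0.05 in edgeR's test (6.21% in the lower direction), whereas 1 of 84 members did. The members' median log2 fold change was 0.018, with 55 of 84 above 0 (47.9% of all genes), beside a median of -0.006 over all genes, and 7 members had an unadjusted p under 0.05, against 27.7% of all genes. The member that passed, Rps19bp1, ran from 54.4 to 73.3 TPM (median 63.0) at 21% O2 and from 51.1 to 65.5 TPM (median 55.8) at 11% O2. The groups overlapped, and 1 of 9 mice at 11% O2 lay above the 21% O2 median. It went from 63.9 ± 5.89 TPM (SD, n = 11) to 56.2 ± 4.41 TPM (SD, n = 9) and fell by 0.18 ± 0.05 on the log2 scale (edgeR adjusted p = 0.00904), short of the fold limit of 0.25, so 0 members were called with it, against 7.23% of all genes. In batch 1, the 1 batch with both groups, its estimate was -0.14 (4 against 4 mice).

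Among the core subunit genes at 11% O2, the smallest p-values belonged to Rps2 and Rps9, small-subunit proteins near the mRNA entry, and to Rps29. Rps2 went from 624.9 ± 38.1 TPM (SD, n = 11) to 670 ± 49.0 TPM (SD, n = 9), with a log2 fold change of 0.10 ± 0.05 (edgeR adjusted p = 0.135). Rps29 had 0.12 ± 0.06 (0.172) and Rps9 0.09 ± 0.04 (0.174). None of the 77 subunit genes passed, and their estimates ran from -0.06 to 0.15.

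Paralogs had the widest estimates in this contrast. Rpl3l, the striated-muscle relative of Rpl3, ran from 1.95 to 4.42 TPM (median 3.05) at 21% O2 and from 3.44 to 5.98 TPM (median 4.14) at 11% O2. All 9 mice at 11% O2 lay above the 21% O2 median, and the log2 fold change was 0.41 ± 0.14 (edgeR adjusted p = 0.0508). Rpl36al ran from 1.09 to 2.87 TPM (median 2.26) and from 1.98 to 3.94 TPM (median 2.99), with 0.46 ± 0.16 (adjusted p = 0.0644), on 6 to 22 counts per mouse. Rpl22l1 ran from 74.6 to 92.3 TPM (median 84.3) and from 67.8 to 85.3 TPM (median 74.9), with -0.15 ± 0.06 (adjusted p = 0.0561). These 3 missed the threshold narrowly, and with limma on log2(TPM + 1) they and Rps19bp1 passed it.

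In PFF mice, 11% against 21% O2 moved no member past the test. Over all genes 0.815% passed an adjusted p of 0.05 in edgeR's test, while 0 of 84 members did, as with DESeq2 and limma (0.58% of all genes were also past the fold limit), and 6 members had an unadjusted p under 0.05, against 10.7% of all genes. Estimates were below 0 for 75 of 84 members and above it for 9 (46.8% of all genes), with a median of -0.050 against -0.006 over all genes. Rpl24 had the largest estimate, -0.48 ± 0.18 (edgeR adjusted p = 0.305), on 5 to 21 counts per mouse and with exons partly shared with Gm28037. Rps27 had -0.12 ± 0.05 (0.348), Rpl22 -0.11 ± 0.05 (0.386) and Rpl22l1 -0.12 ± 0.05 (0.405). The direction of the median was not steady. It was -0.068, 0.031 and -0.093 in batches 1, 2 and 3, -0.077 without PFF replicate 1 at 11% O2, and 0.029, with 59 genes above 0, when the uncorrected counts of all 48 mice were fitted.

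The interaction, the test of whether the PFF effect differed between 11% and 21% O2, was past an adjusted p of 0.05 for 2.32% of all genes (2.14% with the fold limit) and for 0 of 84 members in edgeR, DESeq2 and limma. At an unadjusted p there were 6 members, against 15.4% of all genes. The median over members was -0.069, with 76 below 0 and 8 above it (49.7% of all genes). Rps28 had -0.19 ± 0.08 (edgeR adjusted p = 0.234), Rps29 -0.19 ± 0.08 (0.239), Rpl28 -0.15 ± 0.07 (0.26) and Rps27 -0.15 ± 0.07 (0.298). So the rise of 8 genes at 21% O2 was not shown to be absent or smaller at 11% O2. Rps19bp1 had the opposite sign, 0.21 ± 0.07 (0.0815), with 63.9, 59.9, 56.2 and 61.0 TPM in monomer and PFF mice at 21% O2 and monomer and PFF mice at 11% O2. With all 48 mice the median of the interaction was -0.010.

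The ratio of a paralog to its partner within a mouse cancels the depth of its library. For 5 pairs and 4 comparisons, 20 two-sided permutation tests were made (exact where a group had fewer than 10 mice, otherwise with 100000 resamples), and 0 passed after Benjamini-Hochberg adjustment while 4 had an unadjusted p under 0.05. Rpl7l1, whose yeast relative acts in ribosome assembly, had 29.4 counts per 100 of Rpl7 in monomer and 26.2 in PFF mice at 21% O2. The log2 ratio differed by -0.16 (permutation p = 0.00824, adjusted p = 0.0549), with -0.12 in batch 1 and -0.25 in batch 2. In monomer mice Rpl36al went from 1.15 to 1.54 counts per 100 of Rpl36a between 21% and 11% O2, a log2 difference of 0.45 (exact permutation p = 0.00695, adjusted p = 0.0549). Rpl3l went from 0.286 to 0.385 counts per 100 of Rpl3, also 0.45 (exact permutation p = 0.00772, adjusted p = 0.0549). Rps27l had at most 21.2 counts per 100 of Rps27 in any group and Rpl22l1 between 38.8 and 42.2 per 100 of Rpl22, and neither had an unadjusted p under 0.05 in any comparison.

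Genes that make or run the ribosome were counted in the same fit, from lists chosen with these results known. In PFF against monomer mice at 21% O2, none of 36 initiation factors, 9 elongation factors or 12 genes of rRNA transcription passed an adjusted p of 0.05, against 7.59% of all genes (3.89% higher and 3.71% lower). Of 34 ribosome assembly genes 19 were above 0 (median 0.006) and 3 rose (8.82%, against 3.89% of all genes in the higher direction). This difference was not tested. The 3 were Nhp2, of the pseudouridylating snoRNPs (0.16 ± 0.05, edgeR adjusted p = 0.029), Mrto4 (0.14 ± 0.04, 0.0373) and Nop56, of the methylating snoRNPs (0.12 ± 0.04, 0.0471). Of 24 genes of mTORC1 and TOP control, 12 were above 0 and 12 below (median 0.0), and 3 fell (12.5%). Ddit4, a stress-induced inhibitor of mTORC1, fell by 0.42 ± 0.09 (edgeR adjusted p = 0.00143), with -0.54 in batch 1 and -0.09 in batch 2 (adjusted p = 0.791). The translational repressor Eif4ebp2 fell by 0.19 ± 0.04 (0.00592) and Deptor, an inhibitor within the mTOR complexes, by 0.17 ± 0.04 (0.0114). Of 15 genes of nascent chain handling and quality control, Usp10, a deubiquitinase that acts on the small subunit, fell by 0.15 ± 0.04 (0.0324). With the mitochondrial share as a covariate Nop56 (0.0951) and Usp10 (0.113) did not pass, and Nop56 had 0.06 in batch 1 and 0.19 in batch 2.

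Genes of 2 mitochondrial complexes were counted beside them at 21% O2. Of 77 mitochondrial ribosomal protein genes, 62 were above 0, with a median of 0.048, and 2 rose (2.6%, against 3.89% of all genes in the higher direction). These were Mrps9 (0.17 ± 0.05, edgeR adjusted p = 0.0194) and Mrps28 (0.23 ± 0.07, 0.0327). Of 37 subunits of respiratory complex I, 36 were above 0, with a median of 0.086, and 2 rose (5.41%, against the same 3.89%). Neither difference in share was tested. Ndufv3 rose by 0.16 ± 0.04 (0.0102) and Ndufb11 by 0.14 ± 0.04 (0.035). With the mitochondrial share as a covariate Mrps9 (edgeR adjusted p = 0.0648), Mrps28 (0.112) and Ndufb11 (0.119) did not pass. Mrps28 had 0.37 in batch 1 and 0.10 in batch 2, and Ndufb11 had 0.21 and 0.05. When all fold changes were centred within 20 bins of gene length, the cytosolic members' median fell to 0.071 with 78 of 84 above 0, and 1 member passed, Rps19bp1, which was lower in PFF mice.

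In monomer mice at 11% against 21% O2 the same lists gave 4 of 24 mTORC1 and TOP genes lower and 1 higher (20.8%), against 13.2% of all genes (6.21% lower). Ddit4 fell by 0.44 ± 0.09 (edgeR adjusted p = 0.0011), the stress-induced mTORC1 inhibitor Sesn1 by 0.25 ± 0.05 (0.000555) and Deptor by 0.19 ± 0.05 (0.00671). In 4 further lists 1 gene each fell, a share from 2.78% to 8.33% of the list, against 6.21% of all genes in the lower direction. They were the initiation factor Eif1b (-0.12 ± 0.04, 0.0413), the assembly factor Wdr12 (-0.15 ± 0.05, 0.0479), Taf1d of the RNA polymerase I machinery (-0.20 ± 0.07, 0.0357) and the ligase Ltn1, which acts on stalled large subunits (-0.16 ± 0.05, 0.0421). With the mitochondrial share as a covariate Wdr12 (0.0628) and Taf1d (0.0536) did not pass, and Taf1d had -0.33 in batch 1. Mrps30 of the mitochondrial ribosome fell by 0.28 ± 0.07 (0.00446) and had an interaction of 0.37 ± 0.09 (0.0241), and Ndufb2 of complex I fell by 0.23 ± 0.07 (0.017), each the 1 gene of its list to pass in the monomer contrast (1.3% and 2.7%).

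**Figure D5:**
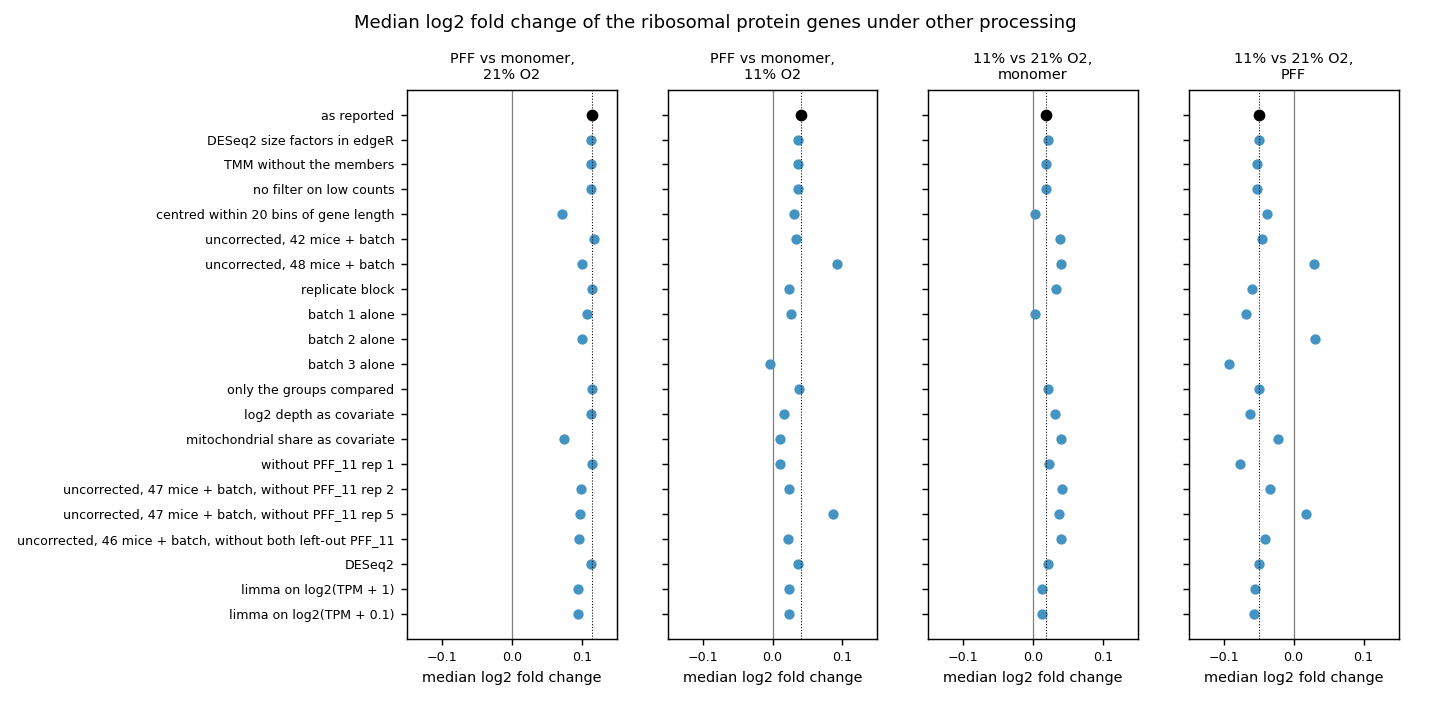
Median log2 fold change over the members (x axes) in 4 comparisons (panels) as reported (black) and under each other processing (blue, named on the y axis). For PFF against monomer at 21% O2 each median lies above 0, between 0.071 and 0.117, while for 11% against 21% O2 in PFF mice they lie on both sides of 0, from -0.093 to 0.031.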

How the data were processed

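RNA from the dissected SN of 48 mice was sequenced, and per the labels and the study's methods the authors aligned reads to mm10 with STAR 2.7.5a, removed duplicates with Picard 2.21.9 (GATK 4.1.5.0-9) and assigned the rest to genes with featureCounts 2.0.1, with multimapping reads counted once at their primary alignment and no strand option. Scanpy 1.8.1 is also among the tools named. The authors deposited the uncorrected counts of 48 mice, and for 42 mice the batch-corrected counts (ComBat-seq, which keeps the group differences) of protein-coding genes. The authors also deposited TPM computed from both. Removal of duplicates and a primary alignment for each multimapping read lower and reassign counts of short, abundant and copied genes such as these. Batch correction on the groups can make p-values too small.

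The batch-corrected counts of 42 mice were fitted with edgeR 4.0.16 (R 4.3.3), with TMM scaling, filterByExpr and 4 groups in 1 quasi-likelihood fit without a batch term, as the study's design had it. Benjamini-Hochberg adjustment ran over 14839 genes. A gene was called when its adjusted p was under 0.05 and its log2 fold change beyond 0.25 in either direction, and the count at the adjusted p alone is given beside it. TPM gave levels. DESeq2 1.42.0, limma 3.58.1, other scalings, filters, covariates, batches and sets of mice were alternatives. The covariate fits, the fits without left-out mice or without PFF replicate 1 at 11% O2, and the set without shared exons were added after the data were seen. The fit and the permutation test were checked on simulated data. Named were the 5 members with the smallest p in each direction of each comparison, the stalk proteins, Rpsa, Rps27a, Rps6, the paralogs with their partners, Rps19bp1, Fau, Rack1 and, of each list, the 3 genes with the smallest p among those that passed. Rps27rt, Rps10 and Rpl13a are named for shared sequence. Rps4l was on the list of paralogs but is not among the members. The members and all lists were chosen with earlier results of these data known. Depth, 12902996 to 17120921 counts on genes, gave tested members 5 to 9026 counts in a mouse. Exon overlaps come from GENCODE vM21 and promoter windows from RefSeq, neither of them the annotation the counts were made with. A few genes that the rule names are not reported here.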

Additional observations from a re-analysis of the deposited data

Results flagged for a closer look

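Of 76 values of named genes checked in the groups of 9 and 10 mice, 4 had a mouse whose gap to the rest passed Dixon's limit (0.493 for 9 and 0.466 for 10 mice), and chance marks about 1 in 20. In monomer mice at 11% O2, replicate 1 had the highest Rpl3l (5.98 TPM, next 4.58 TPM) and the lowest Rps27l (44.7 TPM, next 51.4 TPM), and replicate 5 the lowest Rpsa (400.0 TPM, next 441 TPM). In PFF mice at 11% O2, replicate 11 had the highest Rpl3l (5.54 TPM, next 4.39 TPM).

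Among the 6 mice the study left out, 3 had a share of uncorrected TPM on the 86 genes above that of every analysed monomer mouse at the same O2 level. Monomer replicate 10 at 21% O2 had 2.99%, monomer replicate 8 at 11% O2 had 3.13%, and PFF replicate 2 at 11% O2 had 3.82% with 3134594 counts, a mitochondrial share of 21.8% and 2.61 pseudogene counts per 100 on members. The highest share in an analysed mouse was 3.13%.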

How the results depend on the processing

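For PFF against monomer at 21% O2 the median stayed above 0 in each alternative (0.071 to 0.117), but the number past adjusted p was not steady. It was 22 with only the groups compared and 15 without PFF replicate 1 at 11% O2, both with all 8 genes among them. With limma on log2(TPM + 0.1) it was 5, with 4 of the 8, and with no filter on low counts 4, all of the 8. It was 3 in uncorrected counts of 46 mice without both left-out PFF mice at 11% O2, with 1 of the 8. None of the 8 passed in uncorrected counts of 48 mice or of 47 without either of those mice (1 member, Rpl7l1, lower), when centred by gene length (1, Rps19bp1, lower), in batch 2 (1, Rpl10a, higher), in batch 1 (0) or with the mitochondrial share as a covariate (0). Dropping the fold limit makes 0 called genes 8, and limma called 1 with either pseudocount. For 11% against 21% O2 in monomer mice, the 1 gene past adjusted p became 2 with DESeq2's size factors, with TMM without the members, when centred by gene length and in uncorrected counts of 46 or 47 mice, 3 without PFF replicate 1 at 11% O2, 4 with limma at either pseudocount or the mitochondrial share, and 0 in batch 1. With only the groups compared it was Rpl22l1 in place of Rps19bp1. Genes called were then 1 with DESeq2's size factors, TMM without the members, no PFF replicate 1 or no fold limit, and 2 with limma or the mitochondrial share. The interaction had 1 called when centred by gene length. In corrected counts of 42 mice, leaving out PFF replicate 1 at 11% O2 took the number at 21% O2 from 8 to 15. In the monomer O2 contrast it gave 3. In uncorrected counts of 48 mice, leaving out PFF replicate 2 or 5 at 11% O2 left the number at 21% O2 at 1. In the monomer O2 contrast it gave 2. These are different mice in different sets, so the fits do not compare the same removal. The cause of these changes was not tested. Shares of all genes past adjusted p were taken only in the main fit. Member counts from the other fits therefore have no background and cannot be read as results about the members.

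The study describes mice matched across treatment groups before randomization, and the main fit had no term for such pairs. Whether replicate numbers follow them was not established. Correlations of same-numbered mice ran from -0.382 to 0.302, -0.276 to 0.142, -0.372 to 0.0604 and -0.341 to 0.387 in the 4 contrasts. With the replicate block, genes past adjusted p were 8 at 21% O2 (7 of them the same), 3 in the monomer O2 contrast and 1 in the interaction, and 0 in the other contrasts.

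Of 137 gene and comparison results named, 0 reversed a passed call in 2547 refits, 56 refits lost a call and 42 gained one. The sign of an estimate turned in more refits than either of these, always for results not past the threshold in the main fit. The directions of those estimates were therefore not steady. Members with few counts (Rpl24, Rpl36al, Rpl3l) had the widest errors. Groups held 9 to 12 mice, and leaving out each in turn was not run.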
